A study of Homo sapiens with 6 samples.

Results

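PaTu8988t is an established human pancreatic ductal adenocarcinoma (PDAC) cell line, and the 10 genes described here encode the netrin ligands and the receptors that bind them. They were taken by symbol from the 20347 genes in the deposited expression table, which held all 10: *NTN1*, *NTN3* and *NTN4* (ligands), *DCC* and *NEO1* (DCC-family receptors), *UNC5A*, *UNC5B*, *UNC5C* and *UNC5D* (UNC5-family receptors) and *DSCAM*. RNA-seq was made from 3 control replicates, which carried the Lenti-CRISPR V2 plasmid with an unspecific guide, and from 3 SAMD1 knockout (KO) replicates, which carried it with guides against *SAMD1*; both groups went through puromycin selection for single clones. SAMD1 is a chromatin protein that binds unmethylated CpG islands. The 3 KO libraries are 3 independent clones, so their spread includes differences between clones, whereas the labels do not say whether the control replicates came from separate clones or cultures, and the p-values then measure the spread between these samples only, which for control cells may be technical. The cells were grown in high-glucose DMEM with serum.

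Netrins are secreted, laminin-related proteins first known for guiding growing axons. Through DCC and its relative neogenin they favour outgrowth and attraction, and through UNC5 receptors, alone or together with DCC, they favour repulsion. DCC and the UNC5 proteins are also known as dependence receptors, which can promote cell death when no ligand is bound. In epithelial tumours, including those of the pancreas, netrin-1 has been studied for its effects on survival, adhesion and migration.

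The libraries held 35589477 to 45172216 reads on genes. SAMD1 mRNA, which a small deletion need not remove, had a mean of 2304 ± 76.1 in control libraries and 927 ± 136 in KO clones in normalized counts (SD of 3 libraries; a normalized count is a read count divided by the size factor of its library), with log2 fold change -1.32 and limma adjusted p = 0.000724. Of 6 epithelial marker genes, 5 had a mean of at least 10 normalized counts, with *KRT8* and *KRT18* far above the others, and *KRT19* was listed at 0 in every library. Whether that 0 reflects the cells or the alignment and counting was not tested. The summed epithelial markers, mostly *KRT8* and *KRT18*, were at 62727 to 65936 normalized counts in control libraries and 67655 to 108596 in clones, without overlap. The single markers differed in size and direction. *KRT7* was called higher in the clones (log2 fold change 1.46, limma adjusted p = 0.00392), as was *KRT18* (0.52, limma adjusted p = 0.0598), by the cut-off given below. *KRT8* (0.37, limma adjusted p = 0.195), *CDH1* (0.17, limma adjusted p = 0.737) and *EPCAM* (-0.065, limma adjusted p = 0.804) were not called. Neuronal markers, of interest because several netrin receptors are best known from neurons, were near 0: none of 5 reached a mean of 10, and their summed level was 2.29 to 13.7 normalized counts in control libraries and 4.50 to 12.1 in KO libraries. Of 5 fibroblast markers only *COL1A1* and of 4 leukocyte markers only *CD68* passed that mean. The summed fibroblast markers, mostly *COL1A1*, were at 52.8 to 55.0 normalized counts in control libraries and 18.0 to 44.9 in clones. The summed leukocyte markers, mostly *CD68*, were at 357 to 377 and 251 to 334. Neither sum overlapped between the groups. Of all single genes tested below, 18.6% had every clone below every control library and 19.2% every clone above. The 3 endothelial markers together lay at 77.8 to 84.8 in control libraries and 33.6 to 83.6 in clones. The part of these markers in the results below was not tested.

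Promoters are shown for 3 of the members with a promoter sequence, chosen by patterns described below: *UNC5A* (a small shift in every clone), *NTN4* (a rise in some clones) and *DSCAM* (absent reads in some clones). Other patterns are not represented: *NTN1* and *UNC5B*, which were called higher, had no sequence, and that of *NEO1*, which changed little, is not shown. They are RefSeq sequence of GRCh38.p14, written 5′ to 3′ on the strand of the gene and ending just before the start of the gene, with the letters GCGC in capitals. GCGC was searched because SAMD1 is known to prefer CpG-rich DNA with this core. It reads the same on both strands, and overlapping matches were counted.
*UNC5A*, chr5:176810309-176810518, plus strand: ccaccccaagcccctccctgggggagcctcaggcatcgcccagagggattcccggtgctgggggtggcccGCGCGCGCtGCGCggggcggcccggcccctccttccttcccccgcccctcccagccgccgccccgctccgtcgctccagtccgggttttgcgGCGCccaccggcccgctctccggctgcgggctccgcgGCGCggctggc
*NTN4*, chr12:95791190-95791405, minus strand: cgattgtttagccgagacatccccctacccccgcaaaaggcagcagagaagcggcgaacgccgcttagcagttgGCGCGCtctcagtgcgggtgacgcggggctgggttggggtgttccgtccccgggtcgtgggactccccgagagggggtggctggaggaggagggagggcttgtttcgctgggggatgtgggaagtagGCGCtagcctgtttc
*DSCAM*, chr21:40847159-40847408, minus strand: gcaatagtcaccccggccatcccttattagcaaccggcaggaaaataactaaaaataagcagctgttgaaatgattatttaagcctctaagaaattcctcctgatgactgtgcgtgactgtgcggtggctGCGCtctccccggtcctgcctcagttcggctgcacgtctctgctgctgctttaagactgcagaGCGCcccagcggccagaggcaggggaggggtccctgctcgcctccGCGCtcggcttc
In the RefSeq table, 6 of the 10 genes had a window of 250 bases before a RefSeq transcript start, and *NTN1*, *NTN3*, *UNC5B* and *UNC5D* had none. These windows can run past the earliest annotated start of the gene, and the counts that follow are for the whole window. The *UNC5A* window (chr5:176810309-176810558) held 10 GCGC matches, of which 6 are in the stretch shown and the others lie at or past the GENCODE start, and 97.8% of the 35116 windows in the table held fewer than 10. The *NEO1* window had 6 matches, 3 of them before the GENCODE start. *NTN4* had 3 in the window shown in part and 4 in the window of a RefSeq start inside the gene, *DSCAM* had 3, *UNC5C* 2 and *DCC* 1. Among all windows, 53.4% held GCGC at least once and 29.5% held it at least 3 times. A match describes the letters of the window and says nothing of binding in these cells.

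*NTN1* encodes netrin-1, the founding ligand of the family (chromosome 17, 9021510-9244000, plus strand, GRCh38 with GENCODE 44). It was the member with the largest difference relative to its error. Normalized counts were 405, 428 and 456 in the control libraries and 1099, 1280 and 988 in KO clones 1, 2 and 3, from 354, 437 and 398 reads and from 1111, 1481 and 1098 reads. All 3 clones lay above all 3 control libraries, and the lowest clone was 2.30 times the control mean. The mean rose from 429 ± 25.5 to 1122 ± 147 (SD, n = 3 each), a ratio of 2.61. On the scale of log2(normalized count + 1), used for all fold changes here, the difference was 1.38 (SE 0.11, 95% interval 1.12 to 1.64, limma adjusted p = 0.000740). It was called at the cut-off of the study, a log2 fold change beyond 0.5 with an unadjusted p below 0.01. The study applied this cut-off to DESeq2 results, and here it is applied to the limma fit, so the shares that follow are not those of the study. In the limma fit it called 5.77% of the 12773 tested genes as higher in KO, 2.08% as lower and 7.85% in either direction. Tested genes are those with a mean of at least 10 normalized counts. *NTN1* was singled out in the study from these same libraries, so its rise here is not independent evidence. The study also reports RT-qPCR of genes linked to epithelial-mesenchymal transition in other PDAC lines. Its discussion counts *NTN1* among the targets that SAMD1 represses. Neither was examined here. In bulk RNA, more cells with *NTN1* mRNA and more of it per cell cannot be told apart, here and for every gene below. Leaving out any library gave 1.28 to 1.46, with adjusted p from 0.00102 to 0.00904.

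The median change of the 40 nearest tested genes around *NTN1* was 0.13, -0.01 and 0.01 in clones 1 to 3, against 1.35, 1.57 and 1.20 for *NTN1* itself, so the neighbourhood moved far less than the gene. The study lists an RT-qPCR primer pair for *NTN1*, which is shown only for its place on the gene; no RT-qPCR value in these cells is given here, and the read counts cover all exons.
NTN1 forward primer: ggagggctactaccgcgaca
NTN1 reverse primer: gcaggtgatacccgtcacgc
The forward primer matched coding sequence of exon 3 of 7 (chr17:9162946-9162965) and the reverse primer coding sequence of exon 4 (chr17:9179882-9179901) once each, which gives a product of 151 bases across the intron between them.

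*NTN4* encodes netrin-4, a basement membrane netrin that binds laminins more tightly than the classical receptors (chromosome 12, 95657807-95791189, minus strand). The KO clones disagreed on it. The control libraries held 387, 362 and 389 normalized counts, and clones 1, 2 and 3 held 388, 834 and 751. Clone 1 lay within the control range, at 1.02 times the control mean, while clones 2 and 3 were 2.20 and 1.98 times that mean. The group difference was 0.72 (SE 0.27, 95% interval 0.091 to 1.34, limma adjusted p = 0.125), and *NTN4* was not called because its unadjusted p was above 0.01. Without clone 1 the difference was 1.06 (limma adjusted p = 0.00133), which passes the cut-off, as did the DESeq2 fit to recovered reads (0.80, adjusted p = 0.0161). The neighbouring genes had medians between -0.01 and 0.04 in the 3 clones. *NTN3*, a ligand described mainly in sensory ganglia (chromosome 16, 2471297-2474145, plus strand), had 2 reads in all, 1 in a control library and 1 in a KO library.

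**Figure D1:**
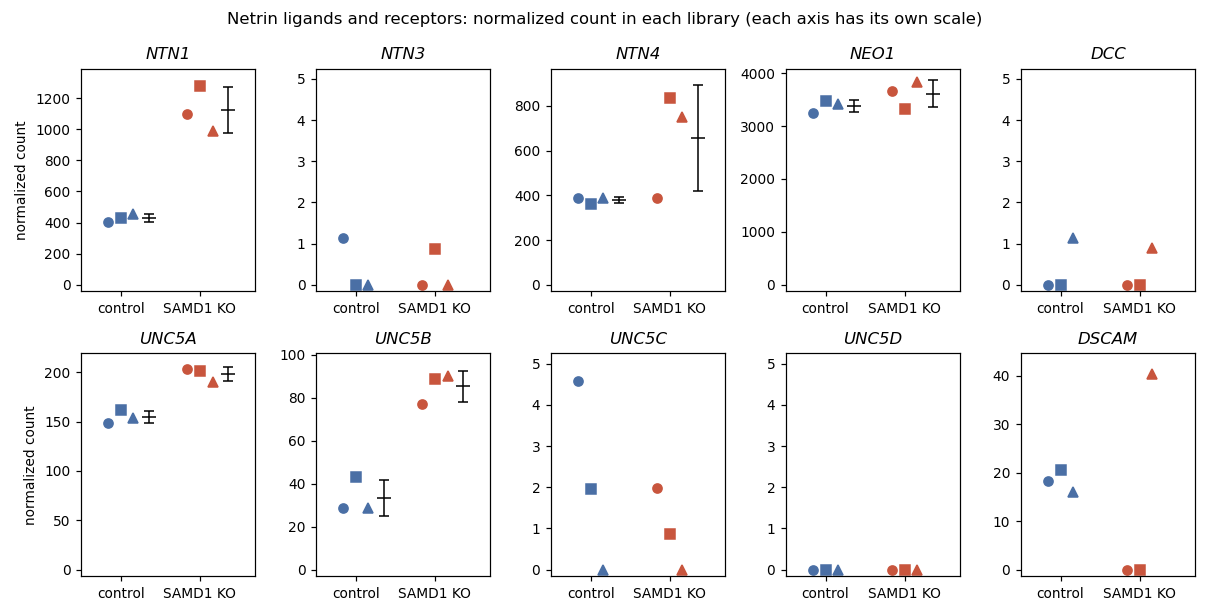
Normalized counts (vertical axes, a separate linear scale in each panel) of the 10 genes in control libraries (blue) and SAMD1 KO clones (red), with circles, squares and triangles for replicates 1, 2 and 3; black bars are mean and SD (n = 3), drawn only for genes with reads in every library. *NTN1*, *UNC5A* and *UNC5B* are higher in all 3 clones than in all 3 control libraries, *NTN4* is higher in clones 2 and 3, and *DSCAM* is at 0 in clones 1 and 2.

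*NEO1* encodes neogenin, the DCC-family receptor of broad expression, which binds netrins and repulsive guidance molecules (chromosome 15, 73051710-73305205, plus strand). It was the best expressed of the 10 genes and changed little. The control libraries held 3252, 3466 and 3411 normalized counts and the clones 3670, 3331 and 3825. The groups overlapped, since clone 2 lay within the control range. The difference was 0.094 (SE 0.066, 95% interval -0.061 to 0.25, limma adjusted p = 0.382), and the interval ends below the 0.5 of the cut-off.

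*DCC*, the receptor for which the family is named and a gene often lost in colorectal cancer (chromosome 18, 52340197-53535899, plus strand), had 2 reads in all, 1 in control replicate 3 and 1 in KO clone 3. With *DCC* at this level, *NEO1* accounted for nearly all DCC-family reads in both groups. *DCC* also shares 190 exon bases with an antisense long non-coding RNA, and the strand setting of the counting is not given in the sources used here.

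The 4 UNC5 receptors fell into 2 with measurable mRNA and 2 with almost none. *UNC5B* encodes the UNC5 receptor best known from blood vessels, and it can signal cell death in the absence of netrin-1 (chromosome 10, 71212570-71302864, plus strand). Its control libraries held 28.6, 43.1 and 28.6 normalized counts and the clones 77.1, 89.0 and 89.9, from 25, 44 and 25 reads and from 78, 103 and 100 reads. No clone overlapped the control libraries. The mean rose from 33.4 ± 8.3 to 85.4 ± 7.1 (SD, n = 3 each), a ratio of 2.55, with a log2 fold change of 1.35 (SE 0.22, 95% interval 0.84 to 1.86, limma adjusted p = 0.00923), and it was called. The median of the 40 neighbours was between -0.05 and -0.01 in the 3 clones. *UNC5B* was called without any one library (1.25 to 1.54), though the limma adjusted p was 0.0545 without control replicate 1 and 0.0542 without control replicate 3.

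*UNC5A* encodes another death-linked UNC5 receptor (chromosome 5, 176810519-176880898, plus strand). Normalized counts were 149, 161 and 154 in the control libraries and 204, 201 and 190 in the clones. Every clone was above every control library, and the clones lay close together, at 1.32, 1.30 and 1.23 times the control mean. The difference was 0.36 (SE 0.11, 95% interval 0.099 to 0.62, limma adjusted p = 0.0772), below the 0.5 of the cut-off, and *UNC5A* was not called. Its neighbours on chromosome 5 were lower in the clones, with medians of -0.09, -0.36 and -0.08, and with that regional shift removed the difference was 0.54 (limma adjusted p = 0.0292), which passes the cut-off. *UNC5A* shares 30 exon bases with *HK3* on the opposite strand, which is 0.695% of its exon bases.

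*UNC5C*, a receptor of cerebellar and spinal axons (chromosome 4, 95162504-95549206, minus strand), had 6 reads over the control libraries and 3 over the clones, with at most 4 in a library. *UNC5D* (chromosome 8, 35235475-35796550, plus strand) had 0 reads in all 6 libraries, which allows up to 3 reads in each by counting error alone.

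*DSCAM*, an immunoglobulin-family adhesion molecule of neurons that can act as a netrin receptor, gave the most uneven pattern (chromosome 21, 40010999-40847158, minus strand). It had 16, 21 and 14 reads in the control libraries and 0, 0 and 45 reads in clones 1, 2 and 3, which are 18.3, 20.5 and 16.0 normalized counts against 0, 0 and 40.5. Against a floor of 3 reads in a library, clone 1 was at least 6.17-fold lower than the control mean and clone 2 at least 7.06-fold lower, whereas clone 3 was 2.21-fold higher. The group difference was -2.47 (SE 1.36, limma adjusted p = 0.271) and was not called, and since it contains libraries at 0 its size depends on the pseudocount. Without clone 3, *DSCAM* was called lower (-4.26, limma adjusted p = 0.00276). The 40 neighbouring genes moved little, with medians of 0.03, 0.04 and -0.01.

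**Figure D2:**
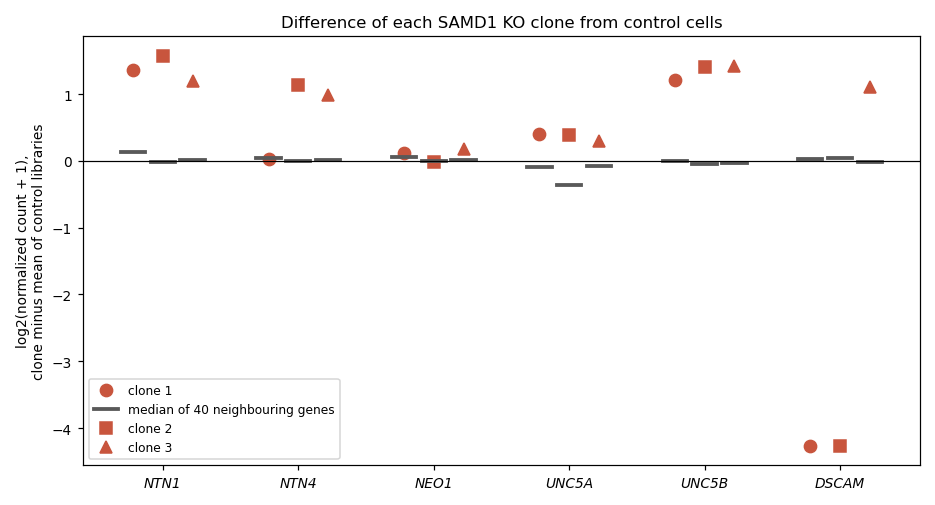
Difference of each SAMD1 KO clone (circle, square and triangle for clones 1, 2 and 3) from the mean of the 3 control libraries on the scale of log2(normalized count + 1), for the 6 tested netrin and receptor genes; grey bars are the median difference of the 40 nearest tested genes in the same clone. *NTN1* and *UNC5B* are above 1 in every clone, *NTN4* and *DSCAM* differ between clones, and the neighbourhood of *UNC5A* is lowest in clone 2, at -0.36.

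Of the 10 genes, 6 passed the minimum of 10 normalized counts and 4 did not. *DSCAM* passed with mean levels near the minimum. Among the 6, 2 were called higher (*NTN1* and *UNC5B*, against 5.77% of all tested genes) and 0 lower in the limma fit, with 4 at an unadjusted p below 0.05 in either direction (29.6% of all tested genes) and, among the other tools, 0 called lower by edgeR and by DESeq2. In 3 of the 6 every clone was above every control library, as in 19.2% of all tested genes, and in 0 every clone was below, as in 18.6%. The median log2 fold change of the 6 was 0.54, against -0.0059 over the 12773 tested genes, and it is the same for any value of *DSCAM* below that of *UNC5A*.

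Levels can be set against each other only per length, here as RPKM (reads per kilobase of canonical transcript, scaled to library size). In control cells the order was *NEO1* (11.7 ± 0.41), *NTN4* (2.57 ± 0.098), *NTN1* (1.76 ± 0.11), *UNC5A* (1.02 ± 0.044), *UNC5B* (0.120 ± 0.030) and *DSCAM* (0.052 ± 0.0065; SD, n = 3 each), and no 2 neighbours in this order overlapped between libraries. The remaining 4 genes had means of at most 0.0055 and could not be ordered. In the KO clones *NEO1* was at 12.7 ± 0.70, *NTN1* at 4.70 ± 0.70, *NTN4* at 4.57 ± 1.71, *UNC5A* at 1.33 ± 0.059, *UNC5B* at 0.313 ± 0.031 and *DSCAM* at 0.039 ± 0.068 (SD, n = 3 each). *NTN1* and *NTN4* overlapped there, with *NTN1* above *NTN4* in clone 1 (4.52 against 2.63) and below it in clones 2 and 3. The order was the same when all annotated exon bases were used as the length.

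**Figure D3:**
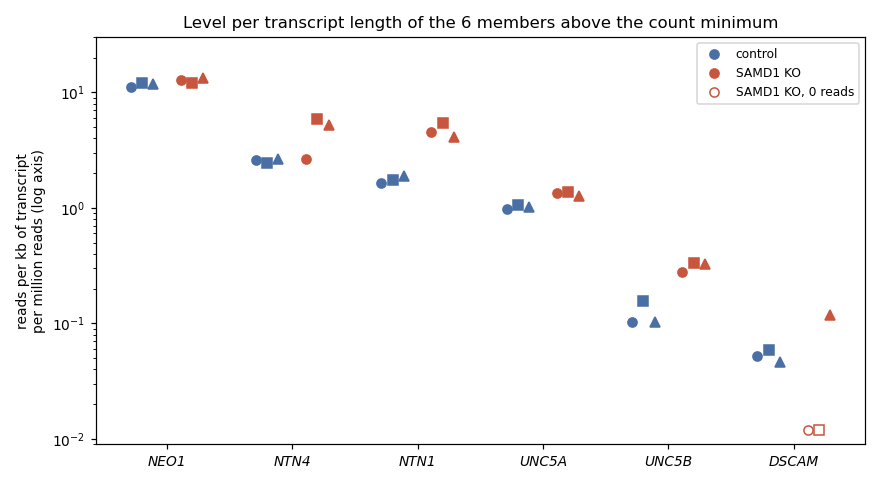
Level per transcript length (RPKM, log axis) in each control library (blue) and SAMD1 KO clone (red) for the 6 netrin and receptor genes above the count minimum, with shapes for replicates 1, 2 and 3; open symbols at the bottom mark *DSCAM* in clones 1 and 2, which had 0 reads and no place on a log axis. *NEO1* leads in every library, and *NTN1* reaches the range of *NTN4* in the KO clones.

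The balance between ligand and receptor mRNA was compared as ratios of these levels within each library. *NTN1* per *NEO1* was 0.148, 0.147 and 0.159 in control libraries and 0.355, 0.456 and 0.307 in the clones, without overlap. *UNC5B* per *UNC5A* was 0.105, 0.146 and 0.102 in control libraries and 0.207, 0.241 and 0.259 in the clones, again without overlap. *NTN1* per *NTN4* was 0.634, 0.714 and 0.708 in control libraries and 1.71, 0.928 and 0.795 in the clones. *UNC5A* per *NEO1* and *UNC5B* per *NEO1* were also higher in all clones, at 0.0871 ± 0.0015 against 0.105 ± 0.010 and at 0.0103 ± 0.0023 against 0.0247 ± 0.0030. *NTN4* per *NEO1* overlapped, at 0.221 ± 0.014 against 0.361 ± 0.144 (SD, n = 3 each). In a two-sided exact permutation test over these 6 ratios, the 5 without overlap had p = 0.1, the smallest that 3 against 3 libraries can give (0.12 after Benjamini-Hochberg adjustment), and the last had p = 0.3. These ratios compare mRNA and not protein. They reuse the same members, so they are not independent of each other or of the single-gene results above. Among all tested genes, 19.2% had every clone above every control library and 18.6% every clone below. The share over pairs of genes was not computed.

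The tested genes whose levels followed *NTN1* most closely over the 6 libraries were *PRKAR2B* (a regulatory subunit of protein kinase A), *AMACR* (a racemase of branched-chain fatty acid breakdown) and *CBLN1* (a secreted synapse organiser), each with a Pearson r of 0.998 on the log2 scale. This is a description over 6 libraries in 2 groups, and 504 tested genes had an r above 0.95. *PRKAR2B* went from 661 ± 22.8 to 923 ± 45.3 normalized counts, *AMACR* from 130 ± 0.80 to 178 ± 8.3 and *CBLN1* from 1.80 ± 0.59 to 20.6 ± 6.4 (SD, n = 3 each). *CBLN1* had only 1, 2 and 2 reads in the control libraries. It passed the minimum of 10 normalized counts only through the clones, so its r rests on their counts against controls near 0. Among the other members, r with *NTN1* was 0.977 for *UNC5A*, 0.943 for *UNC5B*, 0.733 for *NTN4*, 0.479 for *NEO1* and -0.664 for *DSCAM*.

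Around the members, 55 other genes of the netrin pathway were examined in 4 lists. Of these, 47 were tested, 2 were called higher, 2 lower and 43 in neither direction, and the median log2 fold change was 0.011. That makes 8.51% called, beside 7.85% of all tested genes. *LINGO1*, among those called higher, passed the minimum only through the clones. At a limma adjusted p below 0.05 and any fold change, 8 of the 47 were lower and 2 higher. Of all tested genes, 4.7% were lower at that adjusted p.

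The first list held 10 netrin relatives and other ligands of netrin receptors, of which 5 were tested, 0 were called higher and 1 lower, with a median of 0.72. *FLRT1*, a membrane protein of the family whose members bind UNC5 receptors, fell, with means of 38.0 ± 4.5 in control libraries and 19.8 ± 3.6 in clones (SD, n = 3 each; log2 fold change -0.92, limma adjusted p = 0.0462), and this call was lost when any library other than KO clone 2 was left out (-1.04 to -0.79), and with DESeq2 on recovered reads (-0.94, adjusted p = 0.0778). *NTNG2*, a membrane-anchored netrin that does not bind DCC, was at 21.0 ± 1.7 and 42.7 ± 16.9 (0.93, limma adjusted p = 0.0861), and *RGMA*, a neogenin ligand, at 11.1 ± 2.7 and 19.8 ± 7.7 (0.72, limma adjusted p = 0.268). *FLRT3*, the largest difference of the list (1.32, limma adjusted p = 0.416), stood at 12.9, 306 and 40.5 in clones 1, 2 and 3 against 18.3 to 29.4 in control libraries, so it rests on clone 2.

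Of 8 other netrin-binding surface proteins and co-receptors, 7 were tested, with 1 called in each direction and a median of 0.036. *MCAM* (CD146), an adhesion molecule reported to bind netrin-1, fell by 1.02 on the log2 scale (limma adjusted p = 0.00121), with means of 9089 ± 220 and 4511 ± 629 (SD, n = 3 each) and clones at 5237, 4130 and 4166. *LINGO1*, a co-receptor of neogenin, rose, with means of 9.0 ± 6.2 and 33.0 ± 9.2 (SD, n = 3 each; log2 fold change 1.93, limma adjusted p = 0.0467), and its call was lost when any library other than control replicate 2 was left out (1.44 to 2.39). *ITGB4*, the laminin-binding integrin subunit, was at 6083 ± 493 and 11761 ± 5375 (0.86, limma adjusted p = 0.0827).

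Among 27 genes of DCC and neogenin outgrowth signalling, 25 were tested and 0 were called in either direction by limma, with a median of 0.011. At a limma adjusted p below 0.05, where 4.7% of all tested genes were lower, 3 were lower by smaller amounts: *BCAR1* (-0.47), *TRIO* (-0.34) and *PTK2* (-0.18), a docking protein, a RAC exchange factor and focal adhesion kinase. *ENAH*, an actin regulator at the leading edge, had the largest difference (-1.26, limma adjusted p = 0.282) and differed between clones: clones 1, 2 and 3 held 2819, 336 and 446 normalized counts, the control libraries 1742 to 1863. Without clone 1 it was called lower (-2.21, limma adjusted p = 0.000477).

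Of 10 genes of dependence receptor death and turnover signalling, 10 were tested, 1 was called higher and 0 lower by limma, with a median of -0.061. *MAGED1*, a death adaptor that binds UNC5A, rose by 0.64 (limma adjusted p = 0.00609), with means of 6556 ± 270 and 10277 ± 1312 (SD, n = 3 each). Its 40 neighbours on chromosome X moved too, with medians of 0.40, 0.37 and 0.43 in clones 1 to 3, and *MAGED1* was at 0.24 with that shift removed (limma adjusted p = 0.123). *DAPK1*, a death kinase that acts below UNC5B, was lower by less than the cut-off of 0.5 (-0.37, limma adjusted p = 0.0133). So were *PTPN11* (-0.25, limma adjusted p = 0.0149) and *PPP2R1B* (-0.23, limma adjusted p = 0.037), which encode a phosphatase and a phosphatase subunit that bind UNC5 receptors. At a limma adjusted p below 0.05, 3 of the 10 were lower and 1 higher, where 4.7% of all tested genes were lower.

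**Figure D4:**
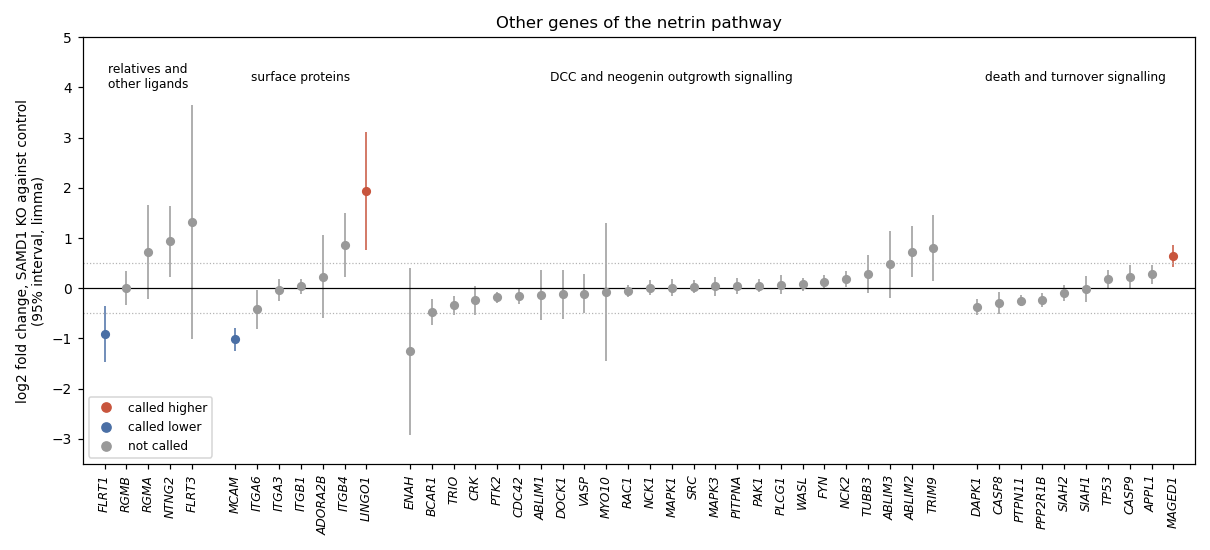
Log2 fold change between KO clones and control libraries (limma, vertical bars are 95% intervals, 3 libraries a group) for the 47 tested genes of the 4 pathway lists, red where called higher, blue where called lower and grey where not called; dotted lines mark 0.5 in each direction. The signalling genes of the third list lie mostly near 0, and the 4 called genes are *FLRT1*, *MCAM*, *LINGO1* and *MAGED1*.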

How the data were processed

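RNA was read on a NextSeq sequencer after poly(A) selection with a TruSeq Stranded kit. The authors aligned reads with RNA-STAR to GenCode on hg38, counted them per gene (the submitters' notes name featureCounts) and normalized with DESeq2. The strand setting of the counting is not given in the sources used here. The deposited signal per library is a normalized count. In every library 100% of values were whole multiples of one step (within 0.1 read), so reads were recovered. The authors' table of their own comparison (mean, fold change, error, test statistic and p-values) was not used, and 0 columns of sample values were left unused.

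limma 3.58.1 (lmFit, eBayes with trend) in R 4.3.3 was fitted to log2(normalized count + 1) for 12773 genes with a mean of at least 10, all tests two-sided. The Benjamini-Hochberg method gave adjusted p-values over all of these genes. On simulated counts limma called 95 of 100 genes changed 2-fold, 100 of 100 changed 4-fold and 18 unchanged genes. The simulation gave all genes and libraries the same dispersion, without differences between clones. In the data the clones differed from each other far more than the control libraries did, so these rates do not describe the error for these clones. Alternatives were edgeR 4.0.16 (quasi-likelihood) and DESeq2 1.42.0 on recovered reads, pseudocounts, filters, 75th percentile rescaling, a replicate block, each library left out, an adjusted p in the cut-off, and removal of the median of 40 neighbours. Correlations and ratios used Python 3.11.15, with positions from GENCODE 44.

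Members and lists were chosen with earlier results of these data known. Named were all members, called list genes, up to 3 of each list by smallest p, the largest fold change of each list and the 3 genes closest to NTN1. *PPP2R1B* was chosen after its values were seen. Of the pathway lists, 1 gene is not reported here and is left out of the counts.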

Additional observations from a re-analysis of the deposited data

How the results depend on the processing

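The rise of *NTN1* passed the cut-off under all 16 alternatives (1.28 to 1.46, adjusted p from 3.74e-23 to 0.00904), as did that of *UNC5B* (1.15 to 1.54), and no sign was reversed for the 6 tested members. The number of members called higher was 2 or 3 throughout. The number called lower was 0 to 1 on leaving out a library (1 without SAMD1 KO clone 3, which is *DSCAM*). *NTN4* passed the cut-off without clone 1 and with DESeq2, and *UNC5A* with the regional shift removed. *DSCAM* ran from -4.63 (pseudocount 0.1) to -0.42 (edgeR) and was below the mean of 50 in that alternative. Pathway genes called higher were 2, but 1 with a mean of at least 50, 3 with pseudocount 10, 75th percentile rescaling or the replicate block, 4 with the regional shift removed, and 1 to 3 without a library (1 without control replicate 1, control replicate 3 or clone 1). Pathway genes called lower were 2, but 1 with a mean of at least 50, with DESeq2 or with the replicate block, 3 with the regional shift removed, and 1 to 4 without a library (1 without control replicate 2 or clone 3, 4 without clone 2). The cause of these changes was not tested, except that the mean of 50 leaves fewer genes.

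Replicate numbers are shared by the groups, and the labels do not say whether they pair the samples. Deviations of same-numbered libraries correlated weakly, at 0.039, 0.134 and 0.032. Control replicates 1 and 2 correlated most with the clone of their own number, and control replicate 3 slightly more with clone 1 (0.036) than with clone 3. These values do not decide whether the samples are paired. With the replicate number as a block, *NTN1* was at 1.38 (limma adjusted p = 0.00499), 2 members were called higher and 0 lower, and the pathway genes called were 3 higher and 1 lower, with *FLRT1* no longer called. Leaving out a library leaves 2 in that group. Counting error weighs most on the genes with few reads, among them *UNC5B*, *DSCAM*, *LINGO1*, *FLRT1*, *FLRT3*, *NTNG2* and *RGMA*.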
